A study of Mus musculus with 12 samples.

Results

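Egr1, Egr2, Egr3, Fos, Fosb, Jun, Junb, Ier2, Ier3 and Dusp1 are immediate-early genes, and their levels were followed here in whole fetal liver. They were chosen by gene symbol and are 10 of the 30743 rows of the deposited table. Immediate-early genes are switched on within minutes of a stimulus, without new protein synthesis, when growth factor and stress signals reach transcription factors already bound to their promoters. The Egr proteins bind GC-rich DNA through zinc fingers, Fos and Jun proteins pair to form the AP-1 factor, Ier2 and Ier3 are small induced proteins, and Dusp1 is a phosphatase that switches off the MAP kinases that induce the group. Fetal liver is a mixed tissue of hepatoblasts and blood-forming cells.

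The livers came from male C57BL/6J fetuses at 15 ± 0.5 dpc. In the control group (n = 6) the dams received chow with 13.5% of kcal from fat, and in the HFD group (n = 6) a diet with 60%, each for 12 to 14 weeks. The strain, sex, age and tissue were common to both groups, and the labels do not state how many dams contributed. The table gives one average log2 CPM (reads of a gene relative to the size of its library, in parts of 1e6) per gene over all 12 livers, which is the authors' value and has no SD. The remaining columns hold the authors' own comparison of the diets and were not used, so the effect of HFD on these genes was not analysed here and no test between groups was run.

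The depth behind each average could be read from the lowest values. The 11091 rows at the lowest value, 0.152 CPM, are those of genes without reads, since edgeR adds a small prior count to each library before averaging. The step from this value to that of 1267 rows with a single read corresponded to a prior count of 2.00. With a prior count of 2, the mean normalized library held about 1.31e+07 reads and the 12 libraries together about 1.58e+08. The limit that a count of 0 allows, 3 reads, equalled 0.0190 CPM over all libraries. Read totals given below were calculated back from the averages in this way and are approximate. Intervals on them cover counting error only and not the spread between livers.

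Low rows of this table could not be taken as low expression. Among 225 genes of ribosomes, proteasomes, RNA polymerase II, chaperonin, mediator, complex I, exosome and nuclear pore, which every cell uses, 37 lay under 1 CPM and 8 were at the lowest value. Of the 152 such genes with 1 curated RefSeq transcript, 8.55% were under 1 CPM, with a median of 63.5 CPM. Of the 73 with several transcripts, 32.9% were under 1 CPM and the median was 6.47 CPM. Over all protein-coding genes the split was smaller, with 51.7% of 11932 with 1 transcript and 59.3% of 7981 with several under 1 CPM. At the lowest value the order was reversed there, with 24.5% of those with 1 transcript and 18.3% of those with several. Single genes, named after their values were seen, were listed low too. Ubb and Rps27a, each with 2 RefSeq transcripts, were at the lowest value. Gapdh, a glycolytic enzyme of every cell, was listed at 5.20 CPM. A gene with 1 transcript could also be listed low, as the proteasome gene Psmc1 was at 0.286 CPM. How reads were assigned to genes is not given in the sources used here, and the part of transcript number in these values was not tested.

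The 10 immediate-early genes fell into 7 with averages above 1 CPM and 3 below it. All 7 (Egr1, Fos, Jun, Junb, Ier2, Ier3 and Dusp1) have 1 RefSeq transcript, and all 3 others (Egr2, Egr3 and Fosb) have several. Fos, the lowest of the 7, stood at 1.88 CPM per kilobase of exon, 32.7 times the listed value of the next gene, Egr3. The values of Egr3 and Fosb are set largely by the prior count, and without it Fosb came next, with Fos 61.5 times its value. Per kilobase of coding sequence, with the prior count, Fos was 11.7 times Fosb. Of all rows with reads, 51.8% lay above 1 CPM. For the 3 low genes the value is therefore given only as listed. The same holds for Fos, whose 4.43 CPM lies under the 5.20 CPM listed for Gapdh.

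**Figure D1:**
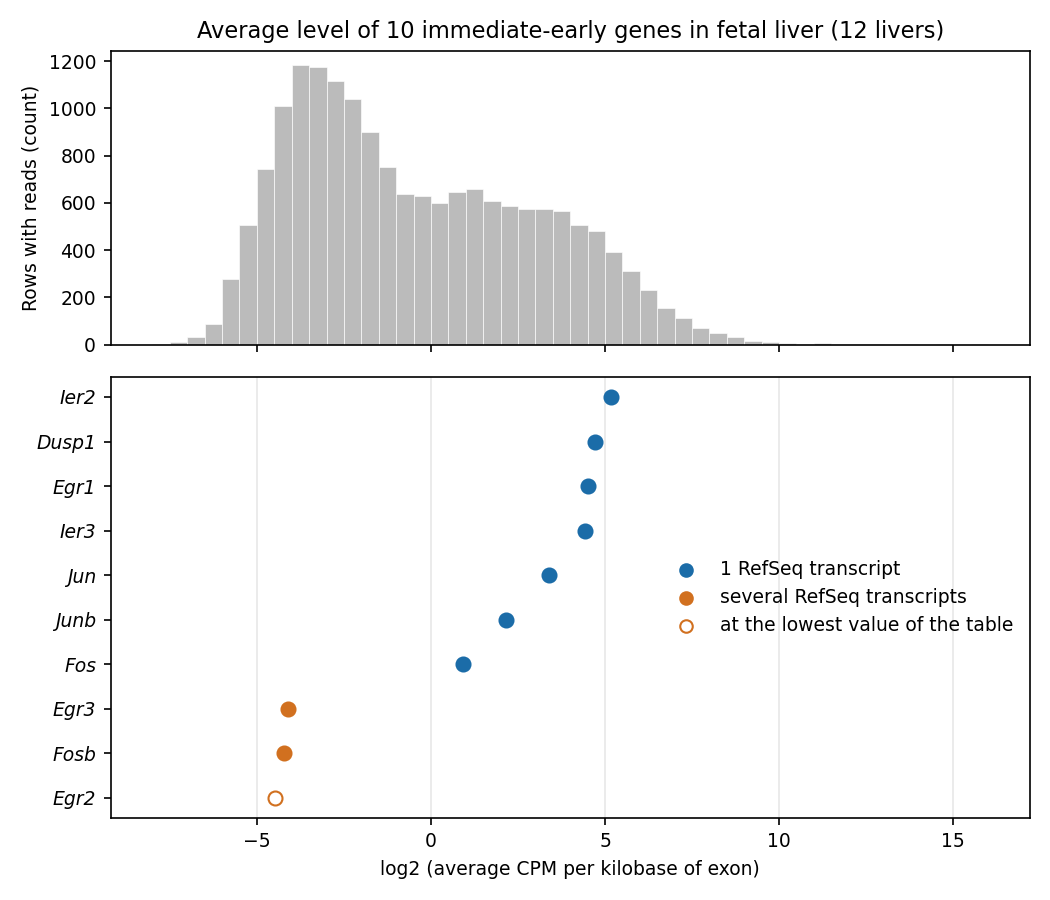
The upper panel counts all rows with reads by log2 of average CPM per kilobase of exon, and the lower panel places the 10 genes on the same axis, 1 point per gene, as the authors' average over 12 livers. The 7 genes with 1 RefSeq transcript (blue) lie between log2 values of 0.91 and 5.17, and the 3 with several (orange) lie between -4.48 and -4.12, with Egr2 (open) at the lowest value of the table.

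**Figure D2:**
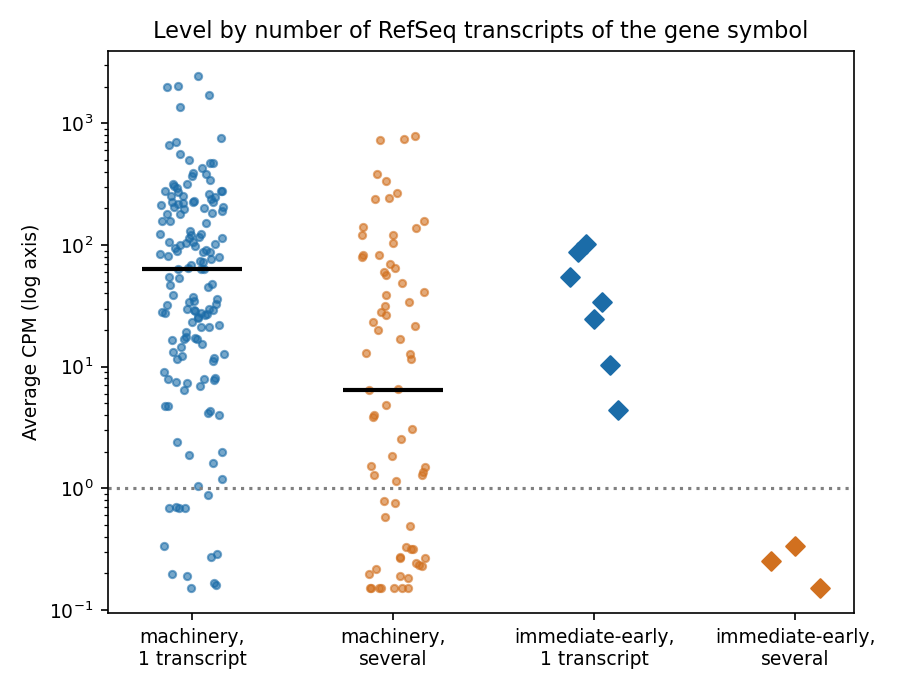
Average CPM (log axis) is plotted for 225 machinery genes (dots, bars at the medians) and the 10 immediate-early genes (diamonds), each divided by the number of RefSeq transcripts of the symbol. The medians of the machinery genes are 63.5 CPM with 1 transcript and 6.47 CPM with several, and every immediate-early gene with several transcripts lies under the dotted line at 1 CPM.

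Egr1, on chromosome 18 of GRCm38 (mm10) from 34859823 to 34864984, had the highest average of the 10 genes. Its level was 102 CPM (log2 6.67), or about 16030 reads over the 12 libraries. Divided by its 4484 bases of exon, this was 22.7 CPM per kilobase, at percentile 89.1 of the 17313 rows with reads and a known length. Against the 10346 such rows with 1 RefSeq transcript, the percentile was 85.3. Egr1 encodes a zinc finger factor of growth and stress signalling that is also studied in blood stem cell retention.

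The other Egr genes were listed far lower. Egr3, which acts in muscle spindle and lymphocyte development, had 0.254 CPM, from about 16 reads. Egr2, the factor of hindbrain and Schwann cell development, was at the lowest value of the table, which corresponds to no read. Its RefSeq entry has 6 transcripts and that of Egr3 has 3. Egr4, with 1 transcript, corresponded to a single read. Egr1 accounted for 99.2% of the summed CPM per kilobase of the 4 Egr genes, and for 99.9% once the prior count was taken out, as the rows are listed.

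Nab1 and Nab2 encode corepressors that bind Egr proteins and limit their action. Nab1 was close to Egr1 with 120 CPM, or 29.3 CPM per kilobase, 1.29 times the value of Egr1. Nab2, itself an Egr target, has 2 RefSeq transcripts and was listed at 1.72 CPM and 0.585 CPM per kilobase.

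Of the Jun family, Jun stood at 33.7 CPM and Junb at 10.2 CPM, or 10.6 and 4.44 CPM per kilobase. Jun is the main partner of Fos in AP-1, whereas Junb often opposes it and restrains myeloid growth. Jun was 2.38 times Junb per kilobase of exon, 1.87 times with the longest transcript as the length and 3.39 times with the coding length. Jund, a constitutive relative that is not induced like the others, had the highest value of the family at 98.7 CPM per kilobase, 9.34 times Jun, or 4.78 times per kilobase of coding sequence.

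Fos, the partner of the Jun proteins, had 4.43 CPM, from about 674 reads (95% exact binomial interval of the read share, without the prior count, 3.96 to 4.61 CPM). Per kilobase of exon, as listed, Jun was 5.61 times and Junb 2.36 times Fos. Per kilobase of coding sequence these values were 8.65 and 2.55. Fosb was listed at 0.337 CPM, from about 29 reads (0.123 to 0.264 CPM without the prior count). Fosl2 and Fosl1, the other Fos relatives, have 1 RefSeq transcript each and were listed at 1.33 CPM and at about 2 reads. As the rows are listed, the summed level of the 3 Jun genes was 52.7 times that of the 4 Fos genes per kilobase of exon, and 35.4 times per kilobase of coding sequence.

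Ier2, a nuclear protein of unclear biochemical role, had 55.0 CPM from about 8638 reads and, with 1522 bases of exon, the highest level per length of the 10 genes, 36.1 CPM per kilobase (percentile 92.7). Dusp1 followed with 87.6 CPM and 26.5 CPM per kilobase (percentile 90.4). Ier3, a small protein that modulates ERK signalling and survival, had 24.5 CPM and 21.6 CPM per kilobase (percentile 88.7). Per kilobase, Ier2 exceeded Dusp1 by 1.36 times, Dusp1 exceeded Egr1 by 1.16 times and Egr1 exceeded Ier3 by 1.05 times. With the longest annotated transcript as the length, Dusp1 came before Ier2. Without values of single livers, none of these neighbours could be shown to differ beyond their spread.

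Some reads of Junb and Jun could belong to neighbours, because the library kit did not mark strand. The Junb exons share 173 of 2301 bases with Prdx2 on the opposite strand, a peroxiredoxin gene of red cells listed at 1042 CPM. Jun shares 232 of 3189 bases with the antisense RNA Junos. Dusp1 shares 11 bases with Ergic1, and the other 7 genes share no exon base with an annotated neighbour. The part of these overlaps in the levels was not tested.

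The genes that surround this response were listed by role. Of 66 such genes beside the 10, 63 had reads and 51 lay above 1 CPM: 34 of 39 with 1 RefSeq transcript and 17 of 27 with several. Above 1 CPM lay 57.9% of protein-coding rows with reads and 33.1% of all rows. The median of the 66 genes was 3.14 CPM per kilobase, against 0.457 for all rows with reads and 1.11 for those with 1 RefSeq transcript. Of the kinases and adaptors that carry the signal from RAS to ERK, 12 of the 13 in the table were above 1 CPM, and 6 were above 5 CPM. Map2k1, which phosphorylates ERK, had the highest average, 104 CPM, whereas its close relative Map2k2, with several transcripts, was listed at 0.285 CPM.

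Of 9 genes for transcription factors that receive the signal, serum response factor (SRF), its ternary complex and MRTF partners and CREB relatives, 6 were above 1 CPM, near the 57.9% of protein-coding rows with reads. Each of the 3 with 1 RefSeq transcript was above 1 CPM, against 3 of 6 with several. Atf1, a CREB relative, had the highest average, 132 CPM, and the MRTF gene Mkl2 the lowest, 0.254 CPM. Srf and Creb1 were named after their values were seen because their proteins bind the CArG box and CRE described below. Srf had 86.5 CPM and 29.9 CPM per kilobase. Creb1, with 3 RefSeq transcripts, was listed at 0.305 CPM and 0.0222 CPM per kilobase, the lowest value per kilobase of this list.

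Of the MAP kinase phosphatases and ERK inhibitors, which provide negative feedback, 10 of 11 were above 1 CPM. Dusp1 was the highest of them, and Spry1, with several transcripts, the lowest at about 1 read. Among 12 further immediate-early transcription factors 7 were above 1 CPM, near the 57.9% of protein-coding rows with reads. Klf6 had the highest average, 80.0 CPM, and Nr4a2 the lowest of those with reads, at about 2 reads. Atf3, with 1 RefSeq transcript, and Nr4a3, with 2, were at the lowest value. Of 18 immediate-early genes of signalling, RNA decay and matrix, Ier2 and Ier3 included, 15 were above 1 CPM. Btg2, an antiproliferative p53 target, was the highest of all listed genes at 402 CPM and 146 CPM per kilobase. Ptgs2, the inducible cyclooxygenase, has 1 RefSeq transcript and was listed at 0.412 CPM.

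**Figure D3:**
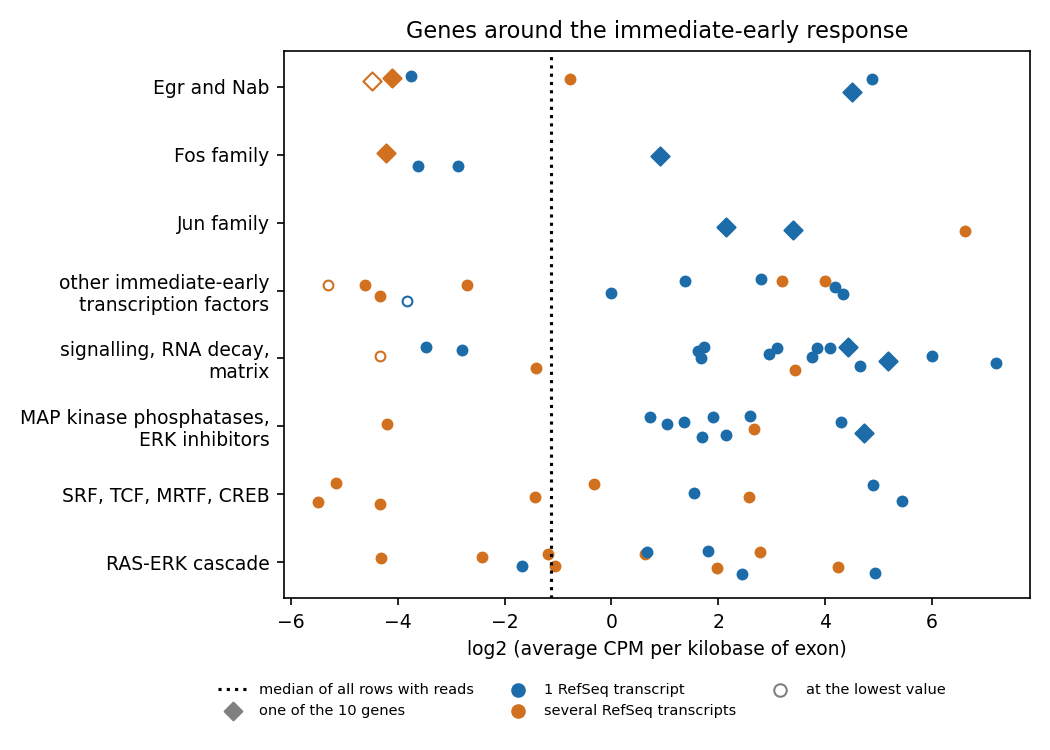
Log2 of average CPM per kilobase of exon is plotted for every gene of the 8 role lists, 1 point per gene, with diamonds for the 10 immediate-early genes and open points for genes at the lowest value. The dotted line marks 0.457 CPM per kilobase, the median of all rows with reads, and 17 of the 24 genes left of it have several RefSeq transcripts (orange).

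The tissue label was checked against marker genes. Alb and Afp of hepatocytes reached 63314 and 54525 CPM, and Slc4a1 and Gata1 of red cells 12037 and 367 CPM. The hepatocyte and red cell lists each had 4 of 5 markers above 1 CPM. Below it were Serpina1a of hepatocytes at 0.184 CPM and Alas2 of red cells at 0.704 CPM. Of 32 markers of 10 cell types with 1 RefSeq transcript, 28 were above 1 CPM, and of 13 with several, 2 were. Above 1 CPM were 4 of 5 neutrophil, 4 of 4 megakaryocyte, 3 of 4 endothelial and 3 of 4 mesenchymal markers, with the highest averages for Mpo (759 CPM), Ppbp (251), Cdh5 (144) and Col3a1 (712). Listed low among them were Pecam1 and Pdgfrb, at the lowest value, and S100a9, at about 2 reads. Of the macrophage markers only Marco (208 CPM) was above 1 CPM, 1 of 4 in the table. Csf1r, with 1 RefSeq transcript, was at 0.684 CPM, Cd68 at about 9 reads and Emr1 at the lowest value. Of the hematopoietic stem and progenitor markers Flt3 stood at 9.86 CPM, while Ly6a, with several transcripts, was at the lowest value. Of the B lineage markers 2 of 4 were above 1 CPM (Cd79a 5.36 and Vpreb1 4.72 CPM). Of the acinar pancreas markers 3 of 5 were above 1 CPM, up to 12.5 CPM for Ctrb1. In whole liver, the share of cells that express a gene and its RNA per cell cannot be told apart, and the part of each cell type in the immediate-early levels was not tested.

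The 10 genes had few exons in the GENCODE M21 annotation of GRCm38. Their longest coding transcripts had at most 4 exons, with a median of 2, against a median of 8 for 15768 protein-coding genes with reads, of which 25.8% had 4 or fewer. The longest coding transcripts of Jun, Junb and Ier2 consist of a single exon, as do those of 3.64% of those genes. Junb spans 4235 bases, of which 2301 are exon, so its annotation as a whole is not a single exon. The median span was 4.70 kb against 22.3 kb. The longest annotated span was that of Dusp1, 56.5 kb, up to which 75.7% of those genes reached. On the minus strand of chromosome 17, this span begins at 26562128, whereas the RefSeq promoter of Dusp1 lies at 26508423 to 26508722. Most of the annotated span thus lies upstream of the RefSeq start. Junb and Ier2 lie 312 kb apart on chromosome 8 (Junb from 84974484 to 84978718, Ier2 from 84661331 to 84662852).

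Promoter sequences, from 250 bases before to 50 after each RefSeq start, were given for 7 of the 10 genes and not for Egr1, Egr3 and Ier2. They were searched on both strands for the CArG box, the binding motif of SRF (CC, then 6 bases of A or T, then GG), and for the cAMP response element (CRE) bound by CREB. The CRE was searched as the full motif TGACGTCA and as its core TGACG, which the full motif contains on both strands. The TATA motif TATAA was searched on the strand of the gene. Stretches that hold them are shown because this gene class is known to be induced through SRF and CREB sites. They are printed 5′ to 3′ on the strand of the gene, from RefSeq on GRCm38.p6, with the CArG box, CRE and TATA bases in capitals (CGTCA is the core read on the other strand). The Egr2 stretches lie before a downstream and an upstream start at chr10:67537746-67537830 and chr10:67537472-67537525, both on the plus strand. That of Dusp1 lies at chr17:26508596-26508675 on the minus strand and that of Fos at chr12:85473749-85473873 on the plus strand. Those of Junb, at chr8:84978828-84978876, and Fosb, at chr7:19310079-19310127, both on the minus strand, hold a single core.
Egr2 downstream start: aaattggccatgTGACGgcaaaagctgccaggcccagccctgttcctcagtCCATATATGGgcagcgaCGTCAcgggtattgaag
Egr2 upstream start: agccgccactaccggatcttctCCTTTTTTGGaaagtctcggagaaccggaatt
Dusp1: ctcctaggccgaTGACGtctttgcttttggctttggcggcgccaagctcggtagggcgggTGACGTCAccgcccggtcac
Fos: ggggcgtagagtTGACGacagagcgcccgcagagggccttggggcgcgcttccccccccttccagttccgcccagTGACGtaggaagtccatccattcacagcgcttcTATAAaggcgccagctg
Junb: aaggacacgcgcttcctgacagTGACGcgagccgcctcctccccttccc
Fosb: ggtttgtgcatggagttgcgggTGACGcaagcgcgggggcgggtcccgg

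Egr2 was the only one of the 7 genes with an exact CArG box in this window, against 1.81% of the 27025 genes with a promoter in the set. Sites more than 250 bases before a start were not searched, so the other genes cannot be said to lack one. Egr2 was searched in 5 promoters, whereas the 27025 genes together have 32851. Its upstream box lies at positions -72 to -63 from the upstream start. The downstream box, between a pair of CRE cores, begins at -72, -73 and -133 from 3 downstream starts. Dusp1 was the only one with a full CRE, at -143 to -136, against 2.03% of all genes. The CRE core was present in 5 of the 7 (Dusp1, Egr2, Fos, Fosb and Junb), against 23.0% of all genes. In Fos the nearer core begins at -66 and the TATA motif at -33. The TATA motif was present in 4 of the 7 (Egr2, Fos, Ier3 and Junb), against 20.0% of all genes. It begins at -58 in Ier3, at -11 from a downstream start of Egr2, and in Junb at the first base after the start. Without the bases after the start, 3 of the 7 held it, against 18.4% of all genes. Jun held none of these motifs in exact form.

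**Figure D4:**
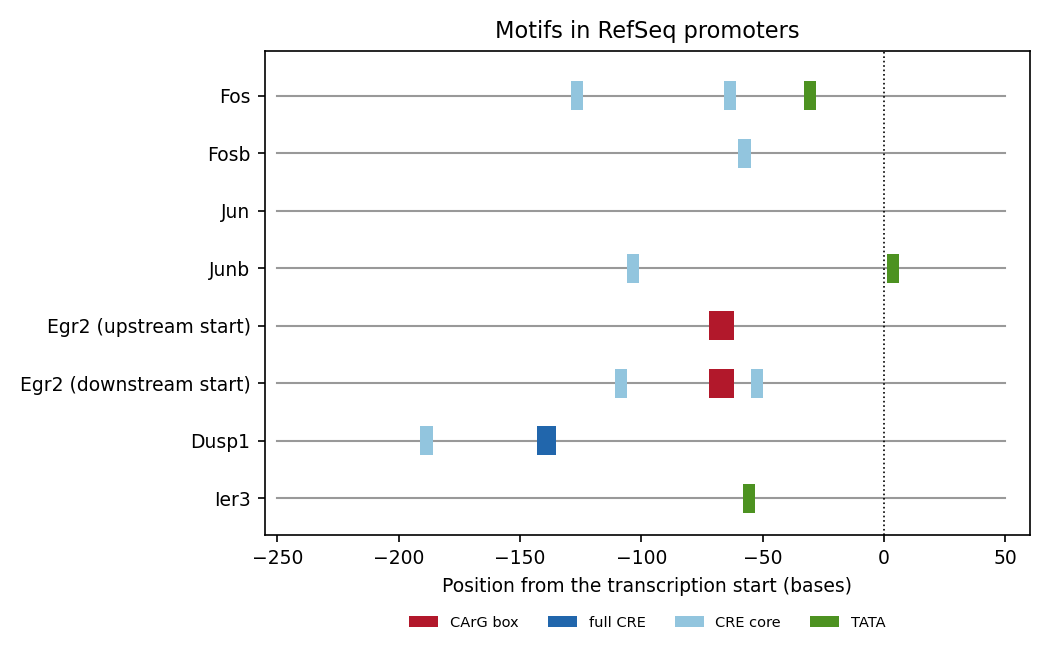
Exact matches to 4 motifs are drawn along the promoters of 7 genes, by distance in bases from the RefSeq start (dotted line), with the upstream promoter and 1 of the downstream promoters of Egr2. CRE cores appear in 5 genes, the CArG box in Egr2 alone and the full CRE, drawn over its cores, in Dusp1 alone.

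Messenger RNAs of immediate-early genes are known for fast decay through AU-rich elements of the 3′ untranslated region, built on the pentamer ATTTA in DNA letters. In the longest coding transcript of each gene, the median was 2.95 pentamers per kilobase of 3′ untranslated region for the 10 genes and 1.29 for 14854 protein-coding genes with reads. Of the 10 genes, 8 lay above that median. Ier3 had the most, 8.16 per kilobase (5 pentamers in 613 bases, percentile 98.6), followed by Dusp1 with 5.80 and Fos with 4.91. Egr1 held 2 pentamers in 1216 bases, at percentile 57.8. Ier2 held none in 755 bases, and Fosb 1 in 2145. The longer nonamer TTATTTATT occurred in Dusp1 and Fos, as in 7.82% of all genes. The share of A and T was alike in both sets, with medians of 54.6% in the 10 genes and 55.5% in all. The 4 highest levels per kilobase were those of Ier2, without a pentamer, Dusp1 and Ier3, with many, and Egr1, at percentile 57.8. The part of the pentamers in the levels was not tested.

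**Figure D5:**
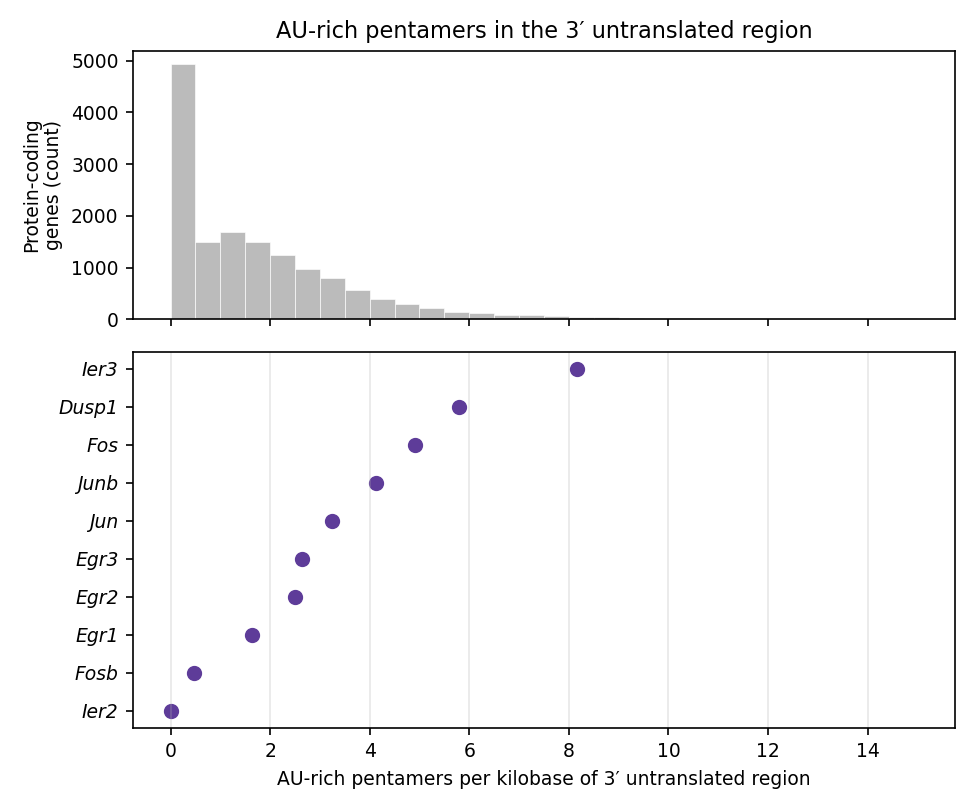
The upper panel counts protein-coding genes with reads by AU-rich pentamers per kilobase of 3′ untranslated region, and the lower panel gives the 10 genes on the same axis. Ier3, Dusp1 and Fos lie furthest right, between 4.91 and 8.16, and Ier2 is at 0.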

How the data were processed

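PolyA-selected RNA of 12 whole fetal livers (6 control, 6 HFD) was sequenced without strand information. Per the labels, cutadapt 1.2.1, Subread 1.3.6-p1 (alignment to mm10) and edgeR were used by the authors. The read counter, edgeR version and normalization are not given in the sources used here. The deposited table gives an average log2 CPM per gene symbol over all livers, which was used as the authors' value. Its 8 columns of the authors' own diet comparison (fold changes, p-values and adjusted p-values under 2 dispersions) were not used. The tests planned for counts of single livers were therefore not run.

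Averages were divided by the union of exons in GENCODE M21 (22889 of 30743 symbols matched). Read totals were calculated back with a prior count of 2. This step was tried on simulated averages made with the same prior count. That checks the arithmetic only, and not how the authors' averages were made. RefSeq transcripts were counted as NM or NR entries per symbol. Levels were described by percentiles among rows with reads. Named genes were the 10, all Egr, Nab, Fos and Jun genes, and the highest and lowest average of each list. The 10 genes, lists and markers were chosen with earlier results of these data known. The split by transcript number, the overlaps, gene structures, the CRE core, TATA motif and AU-rich pentamers were added after seeing the data. Tables and intervals were computed with scipy 1.17.1, pandas 2.3.3 and numpy 2.4.6 under Python 3.11.15, and plots were drawn with matplotlib 3.10.9.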

Additional observations from a re-analysis of the deposited data

How the results depend on the processing

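The count of 7 genes above 1 CPM was the same with the prior count taken out. The median percentile of the 10 genes per kilobase, 78.0 among rows with reads, was 76.9 with the longest transcript and 75.6 with the coding length as divisor, 83.3 among all rows, 60.4 among rows above 1 CPM and, added after seeing the data, 70.8 among rows with 1 RefSeq transcript. In that last set the background median was 1.11 CPM per kilobase, against 0.457. Allowing 1 mismatch, 4 of 7 genes held a CArG box (23.8% of all genes) and 4 a full CRE (14.2%). Taking out the prior count lowered Egr3 to 0.102, Fosb to 0.185 and Egr2 to 0 CPM and put Fosb before Egr3 in the order per kilobase. Of 41 values, for single genes and for the median percentile of the members with 1 RefSeq transcript, 12 moved. That median was 88.7 among rows with reads and 84.8 among rows with 1 RefSeq transcript. Of the 66 other listed genes, 52 lay above 0.5 CPM and 38 above 5 CPM, against 51 above 1 CPM. Within single lists, the limit of 5 CPM took the RAS-ERK list from 12 to 6 and the Fos family from 2 to 0. Protein-coding genes as background gave a median of 0.468 CPM per kilobase, and promoters without the bases after the start left 1 gene each with the CArG box and full CRE.

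Alternatives that need counts of single livers (DESeq2 size factors, low-count filters, leaving out livers, a replicate block) were not run. No paired analysis was possible because the columns carry no values of single livers. The depth limits Egr2, Egr3 and Fosb most, and the assignment of reads to symbols limits every low row.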
